A study of Mus musculus with 6 samples.

Results

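Skeletal muscle genes were followed across the 6 arrays of a study of mouse fat cells. The members were 10 genes given by symbol: Acta1, Pvalb, Mylpf, Ckm, Myh1, Myh4, Tnnt3, Tnni2, Tnnc2 and Actn3. All 10 were measured, among 17720 genes in all, by 16 of 33565 named probe sets, and for a gene with several probe sets the one with the highest mean over the 6 arrays was used.

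Marrow-derived adipocytes (2 arrays) were marker-positive cells recovered by flow cytometry from gonadal fat of mice that had received marrow from donors expressing green fluorescent protein (GFP, replicate 1) or beta-galactosidase (LacZ, replicate 2). Brown adipocytes (2 arrays) came from fat between the shoulder blades, and white adipocytes (2 arrays) from gonadal fat, both without a transplant named in their labels. Every group was made from collagenase-digested tissue, and RNA of several sorts of floating cells was pooled and amplified for each array. The titles call the arrays of each group biological replicates. The labels used here give no strain, age, sex or promoter of the donor markers, and do not say whether replicates came from separate animals. The p-values therefore measure the spread between these arrays, and how much of it is technical is not known.

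Skeletal muscle fibres contract when myosin thick filaments slide along actin thin filaments, and the troponin complex on the thin filament opens this reaction when calcium is released. Fast and slow fibres use different isoforms of these proteins, and most of the genes followed here belong to fast fibres. Fat cells have no sarcomeres, although brown adipocytes and skeletal muscle arise from related embryonic precursors and share some genes of fuel oxidation.

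Each probe set has a log2 expression value on each array, so a difference of 1 is 2-fold. The lower quartile of an array lay between 3.41 and 3.55 and its median between 5.46 and 5.72. Probes differ in brightness, so quartiles and medians serve only as a guide to dim signal, and sizes of change were not read from levels of different genes. The brown label held on both arrays: Ucp1, the uncoupling protein of brown fat, read 13.58 and 13.53 in brown, against 6.43 and 4.84 in white. Elovl3, another brown adipocyte marker, was less even, at 9.09 and 10.93 in brown, against 2.92 and 2.48 in white. Adiponectin (Adipoq), made by fat cells, read 12.70 and 11.86 in marrow-derived, 13.01 and 13.15 in brown and 13.22 and 13.24 in white arrays. The brown pair was the closest of the 3 pairs at a 2-fold limit: 266 genes (1.50% of 17720) were at least 2-fold higher in brown replicate 1 than in replicate 2, and 134 (0.756%) at least 2-fold lower.

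The largest difference between the 2 brown arrays was in a skeletal muscle transcript. The fast troponin T gene Tnnt3, first of all 17720 genes by this difference, was 24.1-fold higher in brown replicate 1 than in brown replicate 2. Of the 10 members 7 were at least 2-fold higher in replicate 1 and 0 at least 2-fold lower, with a median log2 difference of 1.98, against 1.50% of all genes and a median of 0.01. A total of 6 members had their highest value of the 6 arrays in brown replicate 1, as did 12.0% of all genes. For 4 members that array exceeded every other by at least 2-fold, against 0.231% of all genes. Each of these differences is between 1 array and another, so there is no test of it. The members were also chosen with earlier results of these data known, so their contrast with all genes is not independent of these values.

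The fast troponins, the calcium switch of the thin filament, made up the clearest group. Tnnt3, which ties the complex to tropomyosin, read 3.89 and 3.76 in marrow-derived, 8.76 and 4.17 in brown and 4.44 and 4.13 in white arrays. Brown replicate 1 stood alone, and the other 5 arrays lay within 1 log2 unit of each other. Tnni2, the inhibitory subunit, read 4.90 and 4.56 in marrow-derived, 7.99 and 4.54 in brown and 6.01 and 4.85 in white arrays. The first brown array was again highest and the second was the lowest of all 6. Tnnc2, the calcium-binding subunit, read 4.75 and 5.24 in marrow-derived, 9.51 and 6.42 in brown and 7.79 and 7.92 in white arrays. Both white arrays lay between the 2 brown arrays for Tnnc2, and both marrow-derived arrays lay below all others. Tnni2 and Tnnt3 are neighbours on chromosome 7 in the RefSeq annotation of assembly GRCm38.p6, with Lsp1 between them.

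Thin-filament actin behaved partly like Tnnc2. Acta1, skeletal alpha-actin, read 5.78 and 6.39 in marrow-derived, 9.44 and 6.91 in brown and 8.96 and 9.997 in white arrays. White arrays and brown replicate 1 were high, and marrow-derived arrays were lower than all others. Actn3, the alpha-actinin of fast-fibre Z-discs, read 4.78 and 4.05 in marrow-derived, 3.89 and 3.93 in brown and 4.05 and 3.88 in white arrays. It was not raised in brown replicate 1, where the brown difference was -0.04. Its values lay below the array median on all 6 arrays, so a rise could have been missed. The cytoplasmic actin Actb, which every cell makes, read 13.21 and 13.24 in marrow-derived, 12.77 and 12.91 in brown and 13.35 and 13.23 in white arrays.

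The thick-filament genes were split. Mylpf, the fast regulatory light chain, read 7.44 and 7.82 in marrow-derived, 8.30 and 6.58 in brown and 5.62 and 4.69 in white arrays. It was the member in which white arrays lay below all others and marrow-derived arrays were high. Myh1, a fast myosin heavy chain, read 2.93 and 2.51 in marrow-derived, 4.13 and 2.67 in brown and 2.63 and 2.51 in white arrays. Brown replicate 1 was 2.77-fold above brown replicate 2, and the other 5 arrays lay below the lower quartile of an array. Myh4, the heavy chain of the fastest mouse fibres, read 3.34 and 3.27 in marrow-derived, 3.35 and 3.28 in brown and 3.18 and 3.66 in white arrays. These values span 0.48 log2 units and lie near the lower quartile, so no difference was detectable.

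The suffix of the Myh1 probe set marks probes that can also match related transcripts, and the heavy chain genes Myh1, Myh2, Myh4 and Myh8 are close copies that lie next to each other, so its signal may be shared among them. Of the other Myh1 probe sets, 1 read 3.45 and 2.17 in the brown arrays and 1 read 2.34 and 3.04, so the 3 sets did not run the same way. Those other sets lay below the lower quartile on both brown arrays. Of the other Tnni2 probe sets, 1 read 5.62 and 4.15 in the brown arrays and 1 read 2.48 and 2.72, below the lower quartile. The second Ckm probe set read 3.43 and 3.29 in the brown arrays and the second Myh4 probe set 2.85 and 2.92, all below the lower quartile.

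Of the 2 soluble members, Pvalb, the calcium buffer that speeds relaxation of fast fibres, read 3.73 and 4.27 in marrow-derived, 5.96 and 3.73 in brown and 8.03 and 6.57 in white arrays. Its highest values were in white fat, and brown replicate 2 lay at the level of the GFP array. Ckm, muscle creatine kinase, which rebuilds ATP from phosphocreatine, read 3.93 and 3.98 in marrow-derived, 5.31 and 4.41 in brown and 4.40 and 4.50 in white arrays. Brown replicate 1 was highest, by 0.80 log2 units over the next array. The brain-type isoform Ckb, active in fat, read 9.90 and 9.22 in marrow-derived, 9.47 and 9.31 in brown and 10.71 and 9.98 in white arrays.

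**Figure D1:**
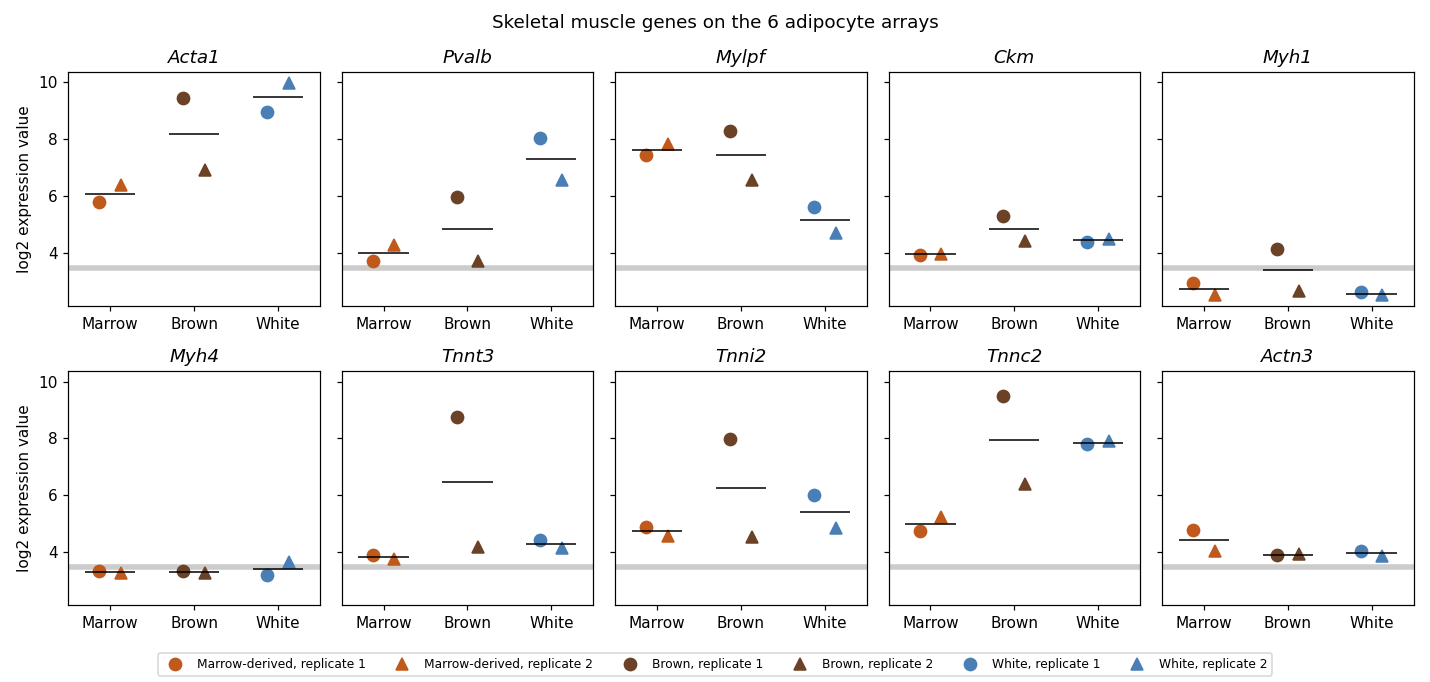
Log2 expression value (vertical axis) of each skeletal muscle gene on each array, with circles for replicate 1, triangles for replicate 2, black lines for group means of 2 arrays and a grey band for the range of the arrays' lower quartiles (3.41 to 3.55). Tnnt3, Tnni2 and Tnnc2 are highest in brown replicate 1, at 8.76, 7.99 and 9.51, while Pvalb and Acta1 are highest in a white array, at 8.03 and 9.997.

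The other pairs of arrays were closer for most members. The GFP and LacZ arrays differed by less than 2-fold for all 10 members, from -0.61 for Acta1 to 0.73 for Actn3. In the white pair, Pvalb (1.46) and Tnni2 (1.16) were at least 2-fold higher in replicate 1, and Acta1 was at least 2-fold lower (-1.04). Over all genes 6.98% were at least 2-fold higher and 3.92% lower in the GFP array than in the LacZ array, and 6.89% and 1.35% in white replicate 1 than in white replicate 2.

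**Figure D2:**
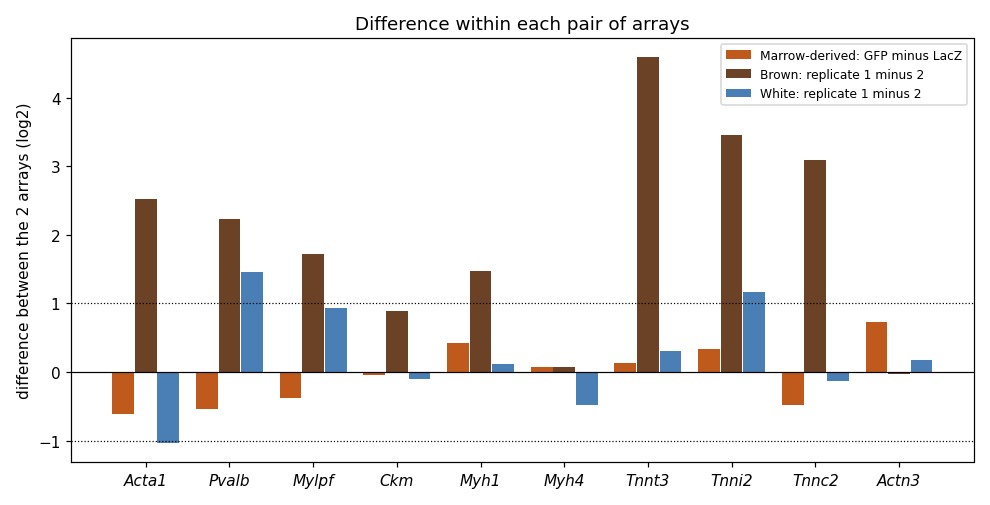
Log2 difference between the 2 arrays of each group, replicate 1 minus replicate 2 (GFP minus LacZ for marrow-derived), for each member, with dotted lines at 2-fold. The brown bars of 7 members pass 2-fold, up to 4.59 for Tnnt3, and those of Ckm (0.89), Myh4 (0.07) and Actn3 (-0.04) do not.

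Short stretches before the gene starts are given for the 4 members with a single listed start that were at least 2-fold higher in brown replicate 1, and for Myh4, the neighbour of Myh1 that was not. Each is 250 bases of GRCm38.p6 from RefSeq, read 5′ to 3′ on the gene's strand and ending just before the start. Capitals mark E-boxes (CANNTG, bound by myogenic factors of the MyoD family), MEF2 sites and CArG boxes (bound by serum response factor), as found on both strands.
Acta1, chr8:123894776-123895025, minus strand: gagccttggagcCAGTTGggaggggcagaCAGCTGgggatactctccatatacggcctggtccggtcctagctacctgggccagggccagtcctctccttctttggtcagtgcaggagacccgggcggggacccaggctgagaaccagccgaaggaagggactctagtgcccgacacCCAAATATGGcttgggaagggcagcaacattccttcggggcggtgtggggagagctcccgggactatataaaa
Tnnc2, chr2:164779735-164779984, minus strand: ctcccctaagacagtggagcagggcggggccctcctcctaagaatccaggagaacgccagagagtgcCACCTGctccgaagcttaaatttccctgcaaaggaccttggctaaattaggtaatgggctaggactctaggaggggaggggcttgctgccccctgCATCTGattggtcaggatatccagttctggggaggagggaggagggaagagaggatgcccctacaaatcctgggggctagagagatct
Mylpf, chr7:127211358-127211607, plus strand: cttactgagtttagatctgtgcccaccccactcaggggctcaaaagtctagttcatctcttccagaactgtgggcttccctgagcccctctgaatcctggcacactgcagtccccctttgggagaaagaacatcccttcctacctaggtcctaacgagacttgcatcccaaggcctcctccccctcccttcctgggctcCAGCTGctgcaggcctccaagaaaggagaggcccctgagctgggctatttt
Myh1, chr11:67199852-67200101, plus strand: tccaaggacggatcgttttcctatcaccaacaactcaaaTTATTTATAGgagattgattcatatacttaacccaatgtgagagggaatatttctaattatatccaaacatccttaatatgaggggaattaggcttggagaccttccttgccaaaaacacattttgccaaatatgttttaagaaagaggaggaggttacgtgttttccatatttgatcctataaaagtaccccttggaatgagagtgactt
Myh4, chr11:67237562-67237811, plus strand: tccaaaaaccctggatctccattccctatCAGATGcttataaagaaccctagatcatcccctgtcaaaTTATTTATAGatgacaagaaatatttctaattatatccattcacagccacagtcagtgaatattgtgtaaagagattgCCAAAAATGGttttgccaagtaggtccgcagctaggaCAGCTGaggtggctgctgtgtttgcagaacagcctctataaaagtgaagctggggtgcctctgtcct

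The windows of Acta1, Tnnc2 and Myh4 held 2 E-boxes each, that of Mylpf 1 and that of Myh1 0. E-boxes are common, since 66.2% of all 32851 windows of this length hold at least 1. A MEF2 site was present in the Myh1 window, 211 bases before the start, and in the Myh4 window, 182 bases before it, against 2.92% of all windows. A CArG box was found 73 bases before the Acta1 start and 104 bases before the Myh4 start, against 1.47% of all windows. Myh1 and Myh4 shared a run of 20 bases, AATATTTCTAATTATATCCA, which begins 165 and 163 bases before their starts. RefSeq windows matched 7 of the 10 members, and a match describes letters only.

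Between groups, the members were first compared in marrow-derived and white adipocytes, which both come from gonadal fat. Acta1 and Pvalb were lower and Mylpf was higher in marrow-derived cells. Acta1 averaged 6.08 ± 0.43 in marrow-derived and 9.48 ± 0.73 in white arrays (SD, n = 2 each), a log2 difference of -3.39 ± 0.87 (SE) or 10.5-fold lower (limma adjusted p = 0.0418). Pvalb averaged 4.00 ± 0.39 in marrow-derived and 7.30 ± 1.04 in white arrays (SD, n = 2 each), 9.83-fold lower (-3.30 ± 0.85, limma adjusted p = 0.0421). Mylpf averaged 7.63 ± 0.27 in marrow-derived and 5.15 ± 0.66 in white arrays (SD, n = 2 each), 5.57-fold higher (2.48 ± 0.63, limma adjusted p = 0.0405). In bulk RNA, fewer cells of a type and less RNA per cell cannot be told apart.

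That is 3 of 10 members called, 1 higher and 2 lower, where 25.8% of all genes were called (12.2% higher and 13.6% lower), so the share is near the background. The members' median difference was -0.48, against -0.07 over all genes. None of the 3 calls held when any 1 of the marrow-derived or white arrays was left out, where their adjusted p ran from 0.064 to 0.173, although their directions stayed. Tnnc2 differed by -2.86 ± 0.97 (limma adjusted p = 0.0885), with 5.00 ± 0.35 in marrow-derived and 7.86 ± 0.09 in white arrays (SD, n = 2 each) and no overlap. Its call was made when either brown array was left out of the shared spread, or with only the 2 groups in the fit (adjusted p = 0.0202 each), since the brown pair supplies 97.4% of the within-group variance of Tnnc2.

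The remaining 6 members did not pass in this comparison. Ckm (-0.50 ± 0.31) and Tnnt3 (-0.46 ± 1.41) had lower arrays without overlap, and Actn3 (0.45 ± 0.27) had higher ones. Arrays did not overlap for 28.5% of all genes in the higher and 35.8% in the lower direction. Tnni2 (-0.70 ± 1.13), Myh1 (0.14 ± 0.49) and Myh4 (-0.11 ± 0.21) overlapped. The smallest adjusted p of these 6 was 0.291, for Actn3.

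**Figure D3:**
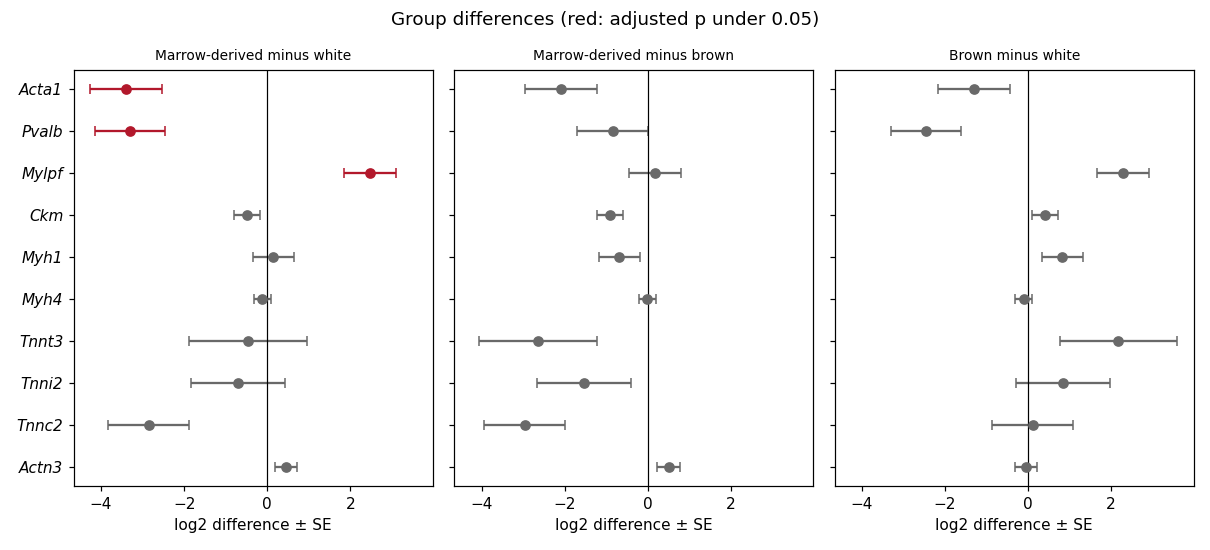
Log2 difference between group means with limma's standard error for each member in 3 comparisons, with n = 2 arrays per group and red for an adjusted p under 0.05. Red points are Acta1 (-3.39), Pvalb (-3.30) and Mylpf (2.48) in marrow-derived minus white, and the widest error is that of Tnnt3 (1.41).

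Against brown adipocytes, 0 of 10 members passed in marrow-derived cells, where 20.4% of all genes were called (8.71% higher and 11.7% lower). The members' median was -0.88, against 0.02 over all genes. An unadjusted p was under 0.05 for Tnnc2 (0.0258) and Ckm (0.0312). The largest differences were in Tnnc2 (-2.96 ± 0.97, limma adjusted p = 0.0902), Tnnt3 (-2.64 ± 1.41, adjusted p = 0.247) and Acta1 (-2.09 ± 0.87, adjusted p = 0.153), all with lower marrow-derived arrays that did not overlap, as for 32.0% of all genes. Ckm differed by -0.91 ± 0.31 (adjusted p = 0.102), also without overlap. Actn3 had higher marrow-derived arrays without overlap (0.50 ± 0.27, adjusted p = 0.249), as 33.0% of all genes did.

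These values turned on which brown array was used. Without brown replicate 1 the Tnnt3 difference was -0.34 and that of Tnnc2 -1.42, and 0 members passed. Without brown replicate 2 they were -4.93 (adjusted p = 0.0367) and -4.51 (adjusted p = 0.0403), and these 2 members passed, with the lone brown array assumed to vary like the other groups. Tnni2 was at -1.54 with both brown arrays, at -3.26 without replicate 2 and at 0.19 without replicate 1. Pvalb (-0.85), Myh1 (-0.68) and Mylpf (0.19) changed sign with a brown array left out, Mylpf also when arrays were centred on their medians.

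Between brown and white adipocytes 0 of 10 members passed, where 9.21% of all genes were called (5.34% higher and 3.87% lower). The members' median was 0.26, against -0.02 over all genes. An unadjusted p was under 0.05 for Mylpf (0.013) and Pvalb (0.0313). Mylpf averaged 7.44 ± 1.22 in brown and 5.15 ± 0.66 in white arrays (SD, n = 2 each), without overlap (2.29 ± 0.63, limma adjusted p = 0.0886). Pvalb averaged 4.85 ± 1.58 in brown and 7.30 ± 1.04 in white arrays (SD, n = 2 each), also without overlap (-2.45 ± 0.85, limma adjusted p = 0.148). Brown arrays lay above white arrays without overlap for 29.7% of all genes and below them for 32.4%. Tnnt3 averaged 6.46 ± 3.25 in brown and 4.29 ± 0.22 in white arrays (SD, n = 2 each), a difference of 2.17 ± 1.41 (limma adjusted p = 0.400) that was -0.12 without brown replicate 1 and 4.47 without brown replicate 2. Tnnc2 differed by 0.11 with both brown arrays, by -1.44 without replicate 1 and by 1.65 without replicate 2. The 3 comparisons share arrays, so their values are not independent of each other.

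The brown pair carried most of the spread that these tests used. It supplied 99.5% of the within-group variance of Tnnt3, 98.3% of that of Ckm, 91.8% for Myh1, 89.0% for Tnni2 and 81.5% for Acta1. For Actn3 and Myh4 it supplied 0.230% and 2.30%.

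Other genes of striated muscle were also higher in brown replicate 1 than in brown replicate 2. Among 10 slow-fibre genes 6 were at least 2-fold higher and 0 lower, with a median log2 difference of 1.51. Myl2, the slow and cardiac regulatory light chain, read 8.69 and 4.14 in the brown arrays and ranked next after Tnnt3 among all genes. Tnnt1, slow troponin T, read 8.62 and 5.60, and Tnnc1, slow and cardiac troponin C, 9.28 and 7.18. Slow and fast isoforms were both higher in that array.

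By the probe sets used, 9 of 24 further sarcomere genes were at least 2-fold higher in brown replicate 1 and 0 lower (median 0.63). Ttn was not among them (3.73 and 3.73 in the brown arrays). Other Ttn probe sets read 4.33 and 3.07, 3.81 and 3.18, and 2.74 and 2.67 there. Smpx read 6.34 and 3.08 in the brown arrays, the Z-disc gene Myot 5.68 and 2.72, and Tcap, which caps titin, 6.68 and 3.91. Of 11 measured genes of muscle energy supply 4 were at least 2-fold higher (median 0.52), among them the sarcomeric mitochondrial creatine kinase Ckmt2 (5.58 and 2.98) and myoglobin, Mb (7.85 and 5.36). Of 12 calcium-handling genes 3 were at least 2-fold higher (median 0.28), with the sarcoplasmic reticulum pump Atp2a1 at 7.38 and 5.17. The others, Ryr1 (6.09 and 4.58) and Trdn (5.28 and 3.84), had their highest values of all arrays in white replicate 1, at 9.70 and 9.82. Of the 30 genes with the largest brown difference, 16 stand in these lists or among the members, which were chosen with earlier results of these data known.

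The other 14 of these 30 genes included genes that macrophages and related myeloid cells make, named here after their values were seen. Gpnmb, a membrane glycoprotein of lipid-laden macrophages, ranked 3 with a difference of 3.77 and read 6.56 and 5.89 in marrow-derived, 8.88 and 5.11 in brown and 12.07 and 9.27 in white arrays. Mmp12, macrophage elastase, ranked 5 with a difference of 3.31 and read 7.80 and 5.95 in marrow-derived, 8.99 and 5.69 in brown and 12.48 and 9.43 in white arrays. Both were highest in white replicate 1. Atp6v0d2 (3.25), Rgs1 (3.13), the integrin gene Itgax (2.36), the perforin-like gene Mpeg1 (2.35) and Cd300lb (2.35) were likewise higher in brown replicate 1. The brown difference of each of these 7 genes was as large as that of most members.

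For most regulators of muscle formation a difference could hardly be seen. Of 9 measured myogenic regulators and satellite cell genes 0 were at least 2-fold higher or lower in brown replicate 1 (median -0.03). However, 5 of the 9 lay below the lower quartile on both brown arrays, among them Myod1 (1.94 and 2.14), Myog (3.39 and 3.40) and Pax7, the satellite cell factor (2.59 and 2.62). The brighter ones included Mef2c, a transcription factor that other tissues also make (10.85 and 10.26), and Des, the muscle intermediate filament (9.18 and 9.14). None of the 5 measured endplate receptor genes or 8 heart muscle genes moved 2-fold either, with medians of -0.25 and -0.13. In each list 2 genes, among them the atrial heavy chain gene Myh6 (2.15 and 2.26), lay below the lower quartile on both arrays. Apart from Chrnb1 (8.45 and 7.92) and Myl4 (8.57 and 8.36), all endplate and heart genes lay below the median of both brown arrays. A difference in those dim genes could hardly be seen. Smooth muscle markers had a median of 0.23 with 0 of 8 at 2-fold, and 11 non-muscle paralogues of the members a median of 0.22 with 0 at 2-fold.

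Myl3, Actn2 and Fabp3 were higher in both brown arrays than in the other 4 arrays and rose against white arrays. Myl3, a slow and cardiac essential light chain, read 5.36 and 5.39 in marrow-derived, 8.20 and 8.06 in brown and 5.40 and 5.66 in white arrays (brown minus white 2.60 ± 0.17, limma adjusted p = 0.00537). Actn2, the Z-disc partner of Actn3, read 2.89 and 2.85 in marrow-derived, 7.56 and 5.33 in brown and 2.98 and 2.86 in white arrays (brown minus white 3.53 ± 0.70, limma adjusted p = 0.041). Fabp3, the heart-type fatty acid carrier that brown fat also makes, read 7.57 and 5.53 in marrow-derived, 13.74 and 13.66 in brown and 8.41 and 6.02 in white arrays. Myl1, the fast essential light chain, ran otherwise and read 9.04 and 8.34 in marrow-derived, 11.47 and 11.67 in brown and 10.80 and 11.35 in white arrays. It was lower in marrow-derived than in brown (-2.88 ± 0.31, limma adjusted p = 0.00634) and white arrays (-2.39 ± 0.31, limma adjusted p = 0.00798), and brown minus white was 0.49 ± 0.31 (limma adjusted p = 0.393).

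Calls in the sarcomere, calcium, energy and slow-fibre lists followed no single direction over the 3 comparisons. In marrow-derived against brown arrays, however, most were lower. There 1 of 24 sarcomere genes was higher and 2 lower, and 0 of 12 calcium genes were called. Of 11 energy genes 3 were lower and 0 higher, and of 10 slow-fibre genes 2 were lower and 0 higher. Over all genes 8.71% were higher and 11.7% lower there. In marrow-derived against white arrays, 2 sarcomere genes rose, Tpm2 (3.33 ± 0.40) and Tpm1 (1.14 ± 0.28), tropomyosins that smooth muscle also makes, and 2 fell, Myl1 and the Z-disc gene Ldb3 (-1.91 ± 0.17). Of the calcium genes Casq1, the calsequestrin of fast fibres (-2.18 ± 0.46), and Jph1, which holds the sarcoplasmic reticulum to the cell membrane (-1.28 ± 0.21), fell, and 0 rose. Of the energy genes Pygm, muscle glycogen phosphorylase, rose (2.97 ± 0.37), while Phkg1, the kinase subunit that activates phosphorylase (-3.22 ± 0.56), and the adenylate kinase Ak1 (-1.51 ± 0.20) fell. In brown against white arrays Pygm (2.21 ± 0.37), muscle phosphofructokinase Pfkm (1.78 ± 0.37) and Fabp3 (6.48 ± 0.97) rose, and Casq1 (-2.37 ± 0.46) and Ldb3 (-1.78 ± 0.17) fell. In marrow-derived against brown arrays Fabp3 (-7.15 ± 0.97), Actn2 (-3.58 ± 0.70), Tnnc1 (-3.36 ± 0.67) and Myl1 fell. Myl3 (-2.75 ± 0.17), Ak1 (-2.44 ± 0.20) and Pfkm (-1.49 ± 0.37) fell there too, while Tpm2 (2.32 ± 0.40) rose. Other Tpm2 probe sets did not all run this way. The brightest of them read 11.19 and 11.83 in marrow-derived and 9.36 and 9.08 in brown arrays. A dimmer set read 5.40 and 8.11 against 8.95 and 6.15, and the dimmest 4.29 and 5.93 against 6.29 and 3.54. Other Ldb3 probe sets read 5.98 and 3.92, and 4.76 and 5.29, in the brown arrays.

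**Figure D4:**
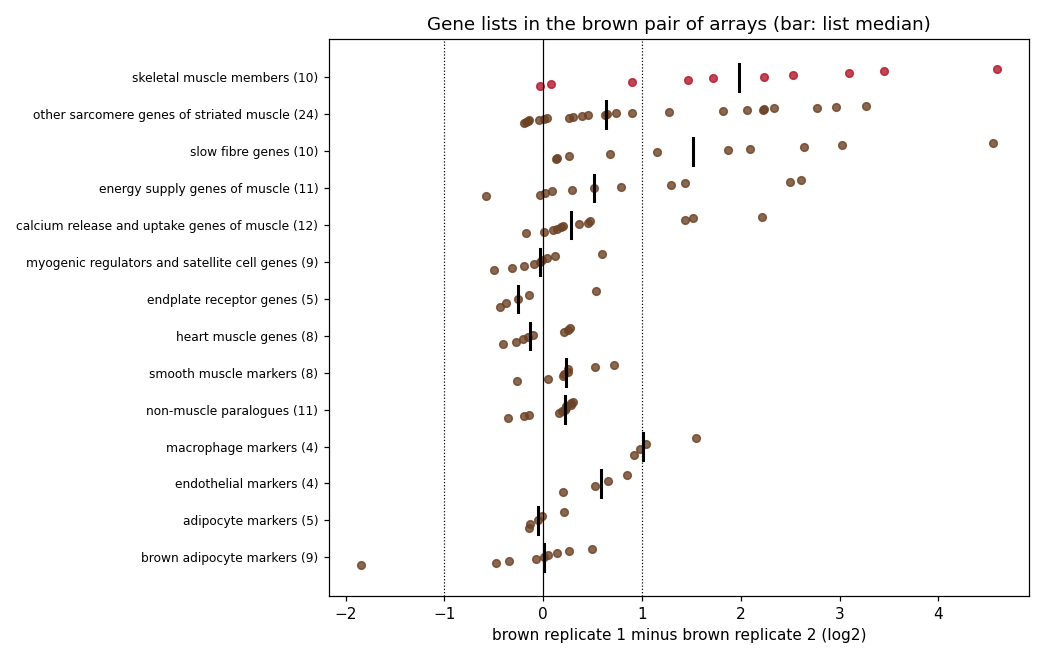
Log2 difference between brown replicate 1 and brown replicate 2 (horizontal axis) for each measured gene of 14 lists, with a black bar at the list median, dotted lines at 2-fold and the number of genes in brackets. The medians are 1.98 for the skeletal muscle members and 1.51 for slow-fibre genes, against -0.03 for myogenic regulators, 5 of 9 of which are below the lower quartile on both arrays, and 0.01 for brown adipocyte markers. The brown adipocyte markers run from -1.85 for Elovl3 to 0.49.

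Macrophage markers were also higher in brown replicate 1. All 4 of the list (Ptprc, Csf1r, Adgre1 and Cd68) were higher in brown replicate 1, by 0.91 to 1.55 log2 units, and 2 of them at least 2-fold. Their mean log2 level was 11.94 and 9.14 in marrow-derived, 9.37 and 8.25 in brown and 11.99 and 10.21 in white arrays, and none lay below its array's median. The 4 endothelial markers differed in the brown pair by 0.20 to 0.85, the 5 measured adipocyte markers by -0.14 to 0.21. The 9 measured brown adipocyte markers differed there by -1.85 (Elovl3) to 0.49, and the 5 white adipocyte markers by -1.35 to -0.02. The part of any of these cell types in the muscle values was not tested. Between the GFP and LacZ arrays macrophage markers differed by 2.11 to 3.31, and all members by less than 2-fold. Between white replicate 1 and replicate 2 macrophage markers differed by 1.11 to 2.12. Of the members, Pvalb (1.46) and Tnni2 (1.16) were also at least 2-fold higher in white replicate 1. Acta1 was at least 2-fold lower there (-1.04), and the remaining members differed by less than 2-fold.

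Genes with the pattern most like the mean of the 10 members were sought over the 6 arrays among genes spanning at least 2 log2 units. The 8 most alike by Pearson correlation were Myot (r = 0.973), Mybpc1 (0.91), Myoz2 (0.907), Pgam2 (0.884), Csrp3 (0.88), Myl2 (0.876), Mb (0.874) and Ckmt2 (0.872). They include Z-disc genes (Myot, Myoz2 and Csrp3), a myosin-binding protein (Mybpc1) and muscle phosphoglycerate mutase (Pgam2). All 8 stand in the striated muscle lists, which were chosen with earlier results of these data known. Each was highest in brown replicate 1, where the mean of the members also peaked, so the search favoured such genes. The mean of the members was itself 4.55 and 4.59 in marrow-derived, 6.67 and 4.66 in brown and 5.51 and 5.27 in white arrays, so these correlations rest largely on 1 array. Within the members, Tnni2 (0.954), Ckm (0.934), Tnnc2 (0.931) and Tnnt3 (0.917) followed the mean most closely, and Mylpf (0.134), Myh4 (0.0953) and Actn3 (-0.469) least.

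**Figure D5:**
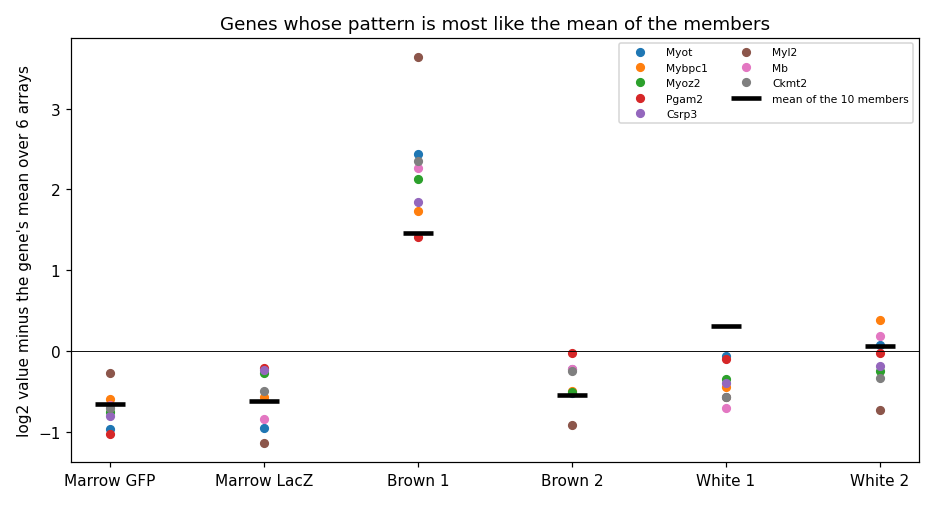
Log2 value minus the gene's own mean over the 6 arrays (vertical axis), for the 8 genes most like the mean of the members (coloured points) and for that mean (black dashes), by array. All 8 genes lie above their mean in brown replicate 1, and Myl2, at a level of 8.69 there, lies farthest above it.

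For Acta1 alone, the member with the highest mean log2 value and so the brightest probe set, the 8 most alike genes were of another kind. They were Gss (0.974), Col23a1 (0.963), 1810062O18Rik (0.961), Egf (0.959), Plce1 (0.936), Foxp2 (0.935), Rcor2 (0.93) and Dmrt2 (0.929), and 0 of them stand in the muscle lists. Gss, glutathione synthetase, read 6.41 and 6.34 in marrow-derived, 8.37 and 6.96 in brown and 7.90 and 8.17 in white arrays. Dmrt2 read 7.28 and 7.04 in marrow-derived, 9.43 and 8.80 in brown and 10.09 and 10.92 in white arrays. Both marrow-derived arrays were lowest for each of these 2 genes, as for Acta1.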

How the data were processed

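RNA of 6 mouse adipocyte samples in 3 groups of 2 was measured, 1 array each. The authors deposited 1 log2 value per probe set and array, with the values of replicate arrays kept apart. Per the submitters' processing notes RMA and Partek were used, with no version, role or order; the log base was taken from the values. RMA equalizes array distributions and gives no detection calls, so values near background understate folds, and the number of arrays limits precision.

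Platform annotation gave 1 symbol to 33565 of 43057 probe sets, several to 857 and none to 8635; 33376 matched RefSeq by gene ID. Group means of all 6 arrays were fitted per gene in limma 3.58.1 (R 4.3.3), with 3 residual and 2.35 prior degrees of freedom, two-sided tests and Benjamini-Hochberg adjustment over 17720 genes at 0.05; the fit was tested on simulated data. All members are named; from other lists, called genes by size, some left out, and genes of the brown-pair ranking after their values were seen. Alternatives covered the test, scaling, probe sets, a level filter, the samples and a replicate block. The members and lists were chosen with earlier results of these data known. List genes without a named probe set were not analysed here.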

Additional observations from a re-analysis of the deposited data

How the results depend on the processing

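The count of members called in marrow-derived against white arrays, 3, was 0 without moderation and 1 when only genes at or above the median level were tested, a filter that 1 of the 10 members (Acta1) passed, and it ran from 0 to 4 with 1 array left out. In marrow-derived against brown arrays it was 0 and ran from 0 to 2 with 1 array left out, the 2 being without brown replicate 2. In brown against white arrays it was 0 under every alternative. With the replicate number as a block, 2 members were called in marrow-derived against white arrays, 1 higher and 1 lower, since Acta1 missed (adjusted p = 0.0707), and 4028, 3066 and 1264 of all genes were called, against 4579, 3611 and 1632. The labels do not say that a number marks a shared batch or animal, and differences within pairs correlated over genes at 0.205 (marrow-derived and white), -0.00376 (marrow-derived and brown) and 0.277 (white and brown), so the numbers were not taken as pairs. A shared batch was not tested. Tnnc2 and Tnnt3 were called only with arrays or groups left out, as given above.

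The counts over all genes were 555, 961 and 0 without moderation (3880 at an unadjusted p under 0.05 in brown against white) and 8344, 6177 and 2711 when 33565 probe sets were tested. Marrow-derived against white gave 2727 with only its 2 groups in the fit. With 1 array left out they ran from 1749 to 4281, from 300 to 3121 and from 5 to 2251, with 1749 without white replicate 2, 300 and 476 without brown replicate 2 and 1, and 5 and 7 without brown replicate 2 and 1. Without white replicate 1 and 2, brown against white gave 837 and 732. Centring arrays on their medians moved the median of all genes by -0.168, -0.194 and 0.026, and the share of calls that were higher was 36.6% and 28.5%, against 47.4% and 42.7%, in the 2 marrow-derived comparisons.

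Sign changes concerned differences that were not called. After centring, Myh1 was at -0.0256 in marrow-derived against white and Mylpf at -0.00832 in marrow-derived against brown. With 1 array left out, differences in marrow-derived against white ran from -0.0681 to 0.35 for Myh1 and from -0.35 to 0.13 for Myh4. Against brown they ran from -1.96 to 0.27 for Pvalb, -0.68 to 1.05 for Mylpf, -1.42 to 0.0498 for Myh1, -0.0452 to 0.0292 for Myh4 and -3.26 to 0.19 for Tnni2. In brown against white they ran from -0.0365 to 0.86 for Ckm, -0.35 to 0.13 for Myh4, -0.12 to 4.47 for Tnnt3, -0.89 to 2.56 for Tnni2, -1.44 to 1.65 for Tnnc2 and -0.14 to 0.0314 for Actn3. The causes were not tested.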
